A study of Mus musculus with 51 samples.

Results

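Azurophil granules, also called primary granules, are the first granules that a developing neutrophil builds. Their main proteins are made at the promyelocyte stage in bone marrow, and transcription of their genes falls as the cell matures, so that a circulating neutrophil carries the proteins while holding little of the mRNA. The 6 genes described here are Mpo, which encodes myeloperoxidase, the 3 neutrophil serine protease genes Elane, Prtn3 and Ctsg, the gene Ctsc for cathepsin C, which cuts the serine proteases into their active form, and Ms4a3, a membrane protein gene used to mark granulocyte and monocyte progenitors. They were chosen by name, with earlier results of these data known. All 6 were found once among the 50600 gene identifiers of the count tables.

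RNA was counted in 43 mouse libraries. In the first experiment neutrophils were sorted from CX3CR1GFP Ly6GCre-tdTomato mice, a reporter strain in which Cre and a red fluorescent protein mark Ly6G-expressing cells. An air pouch under the skin had received 100 µg of zymosan, a yeast cell wall preparation, on day 6, and cells were taken 4 h later from the pouch exudate (5 libraries), the pouch membrane (2), blood (5) and bone marrow (3). All 4 tissues came from challenged mice, and the labels give no unchallenged mice and no age. In the second experiment, ER-Hoxb8 progenitors, a conditionally immortalised mouse myeloid line that stops self-renewing when estradiol is withdrawn, were differentiated for 5 days with G-CSF and incubated for 2 h with zymosan at 50 µg/ml or with DMSO. Set 1 held cells labelled CEBPB-/-, JUNB-/- cells and wild type, and set 2 held IRF5-/- cells, RELB-/- cells and wild type, each with zymosan and with DMSO. Cells labelled RUNX1-/- and KLF6-/- were measured with DMSO only and are set against the DMSO wild type of set 2. These are the same 2 wild type libraries that IRF5-/- and RELB-/- cells are set against. Their counts are identical, but their CPM differ because they were scaled again with the later libraries. Every ER-Hoxb8 group had 2 libraries, and the labels do not say how the lines were made or whether the 2 were separate cultures or clones, so the p-values below measure only the spread between those libraries. ATAC-seq, which marks open chromatin, was done on 75000 Ly6G+ cells per library, with 2 libraries for each of the 4 tissues.

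A tissue library held 9.24 to 19.1 M counted read pairs (M, 10 to the power 6). Set 1 libraries held 19.4 to 32.4 M, set 2 libraries 24.03 to 34.3 M and the libraries of a later table, which holds cells labelled RUNX1-/- and KLF6-/-, 26.9 to 30.1 M. The ER-Hoxb8 replicates were close, with a common biological coefficient of variation of 0.028, 0.019 and 0.020 in the 3 fits, whereas that of the small tissue libraries was 1.86. Neutrophil markers (S100a8, S100a9, Ly6g, Csf3r, Cxcr2, Mmp9 and Retnlg) were all detected in each of the 4 tissues, with a summed level of 82878 to 326477 CPM (counts-per-million, scaled by TMM). Of the 6 targeted mRNAs, 3 were lower in their own line with DMSO: Junb averaged 499 CPM in JUNB-/- cells and 900 CPM in wild type, Irf5 81.4 CPM in IRF5-/- cells and 98.5 CPM in wild type, and Relb 67.9 CPM in RELB-/- cells and 170 CPM in wild type (n = 2 each). These falls were not particular to the targeted line: with DMSO, Junb averaged 469 CPM in IRF5-/- cells and 918 CPM in their wild type, Relb 73.5 CPM in IRF5-/- cells and 170 CPM in wild type, and Irf5 38.8 CPM in RELB-/- cells and 98.5 CPM in wild type. The other 3 were not lower: Cebpb averaged 524 CPM in cells labelled CEBPB-/- and 507 CPM in wild type, Runx1 154 CPM in cells labelled RUNX1-/- and 60.4 CPM in wild type, and Klf6 852 CPM in cells labelled KLF6-/- and 630 CPM in wild type. A disrupted gene can still be transcribed, so counts over the whole gene do not show whether the protein is lost.

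Elane and Prtn3 are neighbours on chromosome 10. Prtn3 lies at chr10:79874476-79883174 and Elane at chr10:79886247-79888215, both on the + strand, and Elane starts 3073 bp after Prtn3 ends (mm10, as in the deposited tables). Mpo lies at chr11:87793581-87804413 on the + strand, Ctsg at chr14:56099881-56102574 on the - strand, Ctsc at chr7:88278085-88310888 on the + strand and Ms4a3 at chr19:11629496-11640851 on the - strand. The 250 bases before the RefSeq start are shown for the 5 members whose RNA or start site the results turn on, as RefSeq gives them on GRCm38.p6, 5′ to 3′ on each gene's own strand. They are Mpo at chr11:87793534-87793783 on the + strand, Elane at chr10:79886062-79886311 on the + strand, Prtn3 at chr10:79879417-79879666 on the + strand, Ctsc at chr7:88277835-88278084 on the + strand and Ms4a3 at chr19:11640852-11641101 on the - strand. Capitals mark matches to GGAAGT (an ETS core of the PU.1 type), TGNGGT (RUNX) or CAACNG (MYB) on either strand.
Mpo: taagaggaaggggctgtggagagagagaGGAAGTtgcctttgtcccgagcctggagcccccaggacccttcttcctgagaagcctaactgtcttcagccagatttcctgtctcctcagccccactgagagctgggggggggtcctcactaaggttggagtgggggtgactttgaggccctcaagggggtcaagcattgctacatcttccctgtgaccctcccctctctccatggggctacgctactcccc
Elane: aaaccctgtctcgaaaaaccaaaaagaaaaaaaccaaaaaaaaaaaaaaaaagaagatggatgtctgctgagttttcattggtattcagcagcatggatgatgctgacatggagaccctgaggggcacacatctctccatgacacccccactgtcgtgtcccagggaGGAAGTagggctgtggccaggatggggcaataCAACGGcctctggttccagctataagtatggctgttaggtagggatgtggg
Prtn3: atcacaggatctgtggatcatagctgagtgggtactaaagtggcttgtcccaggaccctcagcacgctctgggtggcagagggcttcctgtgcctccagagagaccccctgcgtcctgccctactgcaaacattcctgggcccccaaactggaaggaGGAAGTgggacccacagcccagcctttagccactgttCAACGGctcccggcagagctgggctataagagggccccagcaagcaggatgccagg
Ctsc: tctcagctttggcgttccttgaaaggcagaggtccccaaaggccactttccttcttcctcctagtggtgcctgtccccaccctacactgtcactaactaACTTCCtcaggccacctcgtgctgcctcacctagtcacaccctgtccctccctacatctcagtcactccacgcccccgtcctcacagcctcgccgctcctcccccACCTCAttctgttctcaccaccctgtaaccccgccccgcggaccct
Ms4a3: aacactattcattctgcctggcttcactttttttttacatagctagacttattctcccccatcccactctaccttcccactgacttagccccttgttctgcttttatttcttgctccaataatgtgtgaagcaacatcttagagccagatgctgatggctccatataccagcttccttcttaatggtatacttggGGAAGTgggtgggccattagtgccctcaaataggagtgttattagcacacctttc

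The motif letters were chosen after these sequences had been seen, and a match is only a run of letters. GGAAGT was found in the promoters of all 6 members, Ctsg included, and in 19.7% of the 32841 mouse promoters of the same length. CAACNG was found in Elane, Prtn3 and Ctsg and in 29.3% of all promoters, and TGNGGT in Ctsg and Ctsc and in 40.1% of all promoters. In the neighbours Elane and Prtn3 the CAACNG match read the same 6 letters, CAACGG, and began 51 bases before the start of Elane and 56 bases before that of Prtn3. TTNNNCAAT, a C/EBP motif, was found in none of the 6 windows and in 10.0% of all promoters. Both strands were searched for each motif, and no match in a member overlapped another.

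In neutrophils of the 4 tissues the azurophil transcripts were at or near the limit of detection, apart from Ctsc and, in some libraries, Prtn3. Elane and Ms4a3 had 0 counts in all 15 libraries, and a count of 0 allows up to 3 counts, which is 0.129 to 0.297 CPM on the TMM scale and covers counting error only. Ctsg had 0 counts in 13 libraries, with 1 and 2 counts in 2 exudate libraries. Mpo reached 9 counts in 1 exudate library, 0 in both membrane libraries, 15, 7 and 2 counts in 3 of the blood libraries and 4 counts in 1 bone marrow library. These 4 genes did not pass the filter on low counts, so in the tissues only Ctsc and Prtn3 were tested.

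Ctsc was detected in all 15 tissue libraries but varied widely within each tissue. Its level was 17.2, 0.307, 17.96, 0.178 and 0.0765 CPM in the exudate libraries, against 3.94, 119, 55.0, 76.7 and 34.5 CPM in blood. It was 0.0815 and 27.7 CPM in the membrane libraries and 63.7, 38.7 and 0.343 CPM in bone marrow. Of the 5 blood libraries, 4 were above every exudate library, and the groups overlapped. The log2 difference from blood was -3.01 in the exudate (SE 1.74, adjusted p 0.352 by edgeR's quasi-likelihood test with Benjamini-Hochberg adjustment), so the difference was within the spread between libraries.

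Prtn3 was at 0 in 4 exudate libraries and had 1 count in the fifth. The 2 membrane libraries held 335 counts, the 5 blood libraries 80 and the 3 bone marrow libraries 303. Per library it was 5.26, 0.0714, 1.13, 0 and 0 CPM in blood and 0.473, 6.36 and 12.6 CPM in bone marrow. All 3 bone marrow libraries lay above the 5 exudate libraries, a separation whose share over all genes was not counted. All 335 membrane counts came from 1 library (28.6 CPM), the other being at 0. Summed and scaled to library size, the exudate had 0.00178 times the Prtn3 counts of bone marrow (exact interval 4.5e-05 to 0.010) and 0.0106 times those of blood (0.000265 to 0.0608). These intervals cover counting error only. The fitted log2 difference of -8.04 depends on the prior count for so few counts, and by edgeR it did not pass (adjusted p 0.13). DESeq2 called Prtn3 lower in the exudate than in bone marrow (adjusted p 0.00731) and than in the membrane (adjusted p 0.0155). The share of all genes that DESeq2 called in these comparisons is not given here, so these calls cannot be set against it. The membrane value rests on 1 library: without it the fitted log2 difference by edgeR was 1.54.

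Over the 6 tissue comparisons edgeR called 0 of the 2 members tested, and also few genes of any kind: 0% of 12330 genes were called between exudate and blood, 0.178% between exudate and bone marrow, 0% between exudate and membrane, 0% between membrane and blood, 0.0162% between membrane and bone marrow and 0.0162% between blood and bone marrow. At an unadjusted p under 0.05, 2349 and 2848 genes passed between exudate and blood and between exudate and bone marrow, and Prtn3 was among them in both. On counts simulated at this spread, the test found 16% of 64-fold changes between exudate and blood. Strand was ignored in the tissue counts, and the spans of Prtn3, Ctsc and Mpo overlap those of Plppr3, Gm26522 and Gm11505 on the other strand. Reads over any exon sequence that they share could not be assigned by strand, and whether their exons overlap was not examined. The deposited column names carry a tag of 100 or 300 whose meaning is not given. High and low Ctsc libraries occurred under both tags in the exudate (17.2 and 0.307 CPM under 100; 17.96, 0.178 and 0.0765 CPM under 300), and exudate was below blood in the mean under each. Bone marrow has only tag 100 and the membrane only tag 300, so tag and tissue cannot be told apart there.

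**Figure D1:**
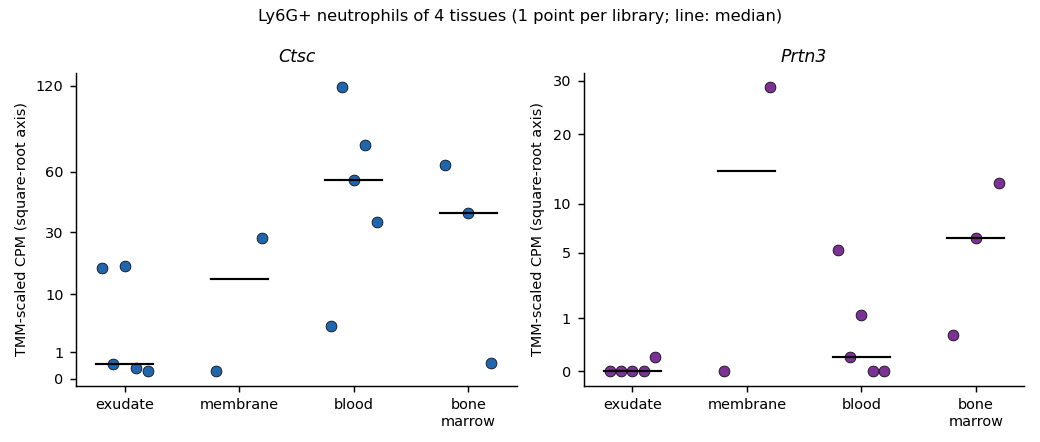
TMM-scaled CPM of Ctsc and Prtn3 in each sorted neutrophil library, by tissue, with a point per library and a line at the median. Ctsc spans 0.0765 to 119 CPM, and Prtn3 is at 0 in 4 of 5 exudate libraries.

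ER-Hoxb8 neutrophils held all 6 transcripts, and their order by level per transcript length was led by Ctsc. In the DMSO wild type of set 1, Ctsc averaged 445 TPM (transcripts-per-million, corrected for gene length; 440 to 450), Prtn3 75.2 TPM, Mpo 13.6 TPM, Elane 12.2 TPM, Ms4a3 7.23 TPM and Ctsg 4.33 TPM, each over 2 libraries. In the DMSO wild type of set 2 it was Ctsc at 144 TPM, Prtn3 at 74.4, Mpo at 15.7, Ctsg at 7.46, Ms4a3 at 6.32 and Elane at 4.77. The libraries of neighbours in this order did not overlap in either set, although in set 2 the gap between Ms4a3 (6.03 to 6.61 TPM) and Elane (3.83 to 5.70 TPM) was small beside their spread. Elane was thus the fourth of the 6 in set 1 and the last in set 2. By counts, Prtn3 had 1180 and 1259 read pairs in the set 1 wild type, whereas Elane had 113 and 113, Ctsg 47 and 35.

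**Figure D2:**
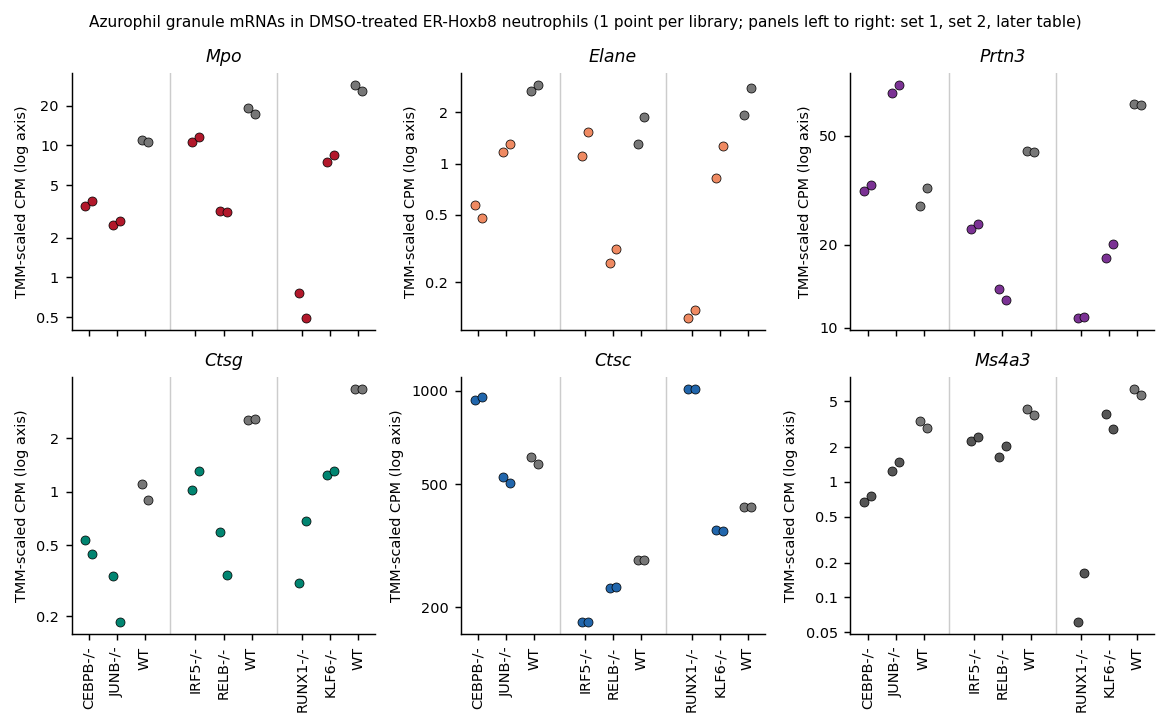
TMM-scaled CPM on a log axis of each azurophil gene in the DMSO libraries of ER-Hoxb8 neutrophils, with a point per library and each line left of its wild type. In cells labelled RUNX1-/-, Mpo (0.766 and 0.491 CPM) and Ms4a3 (0.0612 and 0.164 CPM) lie far below their wild type, while Ctsc lies above it.

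Most azurophil transcripts were lower than in wild type in each line with DMSO, and the median difference was lowest in cells labelled RUNX1-/-. The exceptions that passed the test were Ctsc, higher in cells labelled RUNX1-/- and CEBPB-/-, and Prtn3, higher in JUNB-/- cells. Across the 6 lines 34 of 36 values passed the test, 31 of them lower than in wild type, so that Mpo, Ctsg and Ms4a3 were lower in all 6 lines and Elane in 5. Such calls are common in these data, in which replicates were close. The lines are not independent: cells labelled CEBPB-/- and JUNB-/- cells share wild type libraries, and so do the lines of set 2 and of the later table. With 2 libraries in a group, a lack of overlap with wild type is easily reached, and its share over all genes was not counted. In cells labelled RUNX1-/-, 5 members were lower and 1 higher, where 37.1% of all genes tested were lower and 38.2% higher. In RELB-/- cells all 6 were lower (27.3% of all genes lower, 32.1% higher), in cells labelled KLF6-/- all 6 (35% lower, 31.2% higher), in IRF5-/- cells 5 (29.6% lower, 35% higher), in cells labelled CEBPB-/- 4 with 1 higher (36.9% lower, 33.6% higher) and in JUNB-/- cells 5 with 1 higher (41.1% lower, 35.4% higher). The median log2 difference of the 6 members was -3.52 for cells labelled RUNX1-/-, -2.08 for RELB-/-, -1.38 for cells labelled KLF6-/-, -1.29 for cells labelled CEBPB-/-, -1.19 for JUNB-/- and -0.75 for IRF5-/-, where the median of all genes tested was 0.01, 0.04, -0.04, -0.05, -0.12 and 0.04 in the same order. With scaling by the total count in place of TMM the median of all genes moved to -0.67 in JUNB-/- cells, -0.40 in cells labelled CEBPB-/- and 0.38 in cells labelled RUNX1-/-, and the 34 values kept their direction and their call. In bulk RNA, fewer cells of a type and less RNA per cell cannot be told apart.

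Mpo, whose product turns hydrogen peroxide and chloride into hypochlorous acid, fell most in cells labelled RUNX1-/-. It had 0.766 and 0.491 CPM there (25 and 18 read pairs), against 28.7 and 25.6 CPM in wild type (740 and 737 read pairs), a log2 difference of -5.44 (SE 0.15, edgeR adjusted p 8.49e-27). In RELB-/- cells Mpo was 3.18 and 3.13 CPM, against 19.3 and 17.3 CPM in wild type, a log2 difference of -2.54 (SE 0.10). The groups were far apart in both lines. JUNB-/- cells had 2.48 and 2.67 CPM and cells labelled CEBPB-/- 3.50 and 3.80 CPM, against 10.9 and 10.6 CPM in their shared wild type (log2 differences -2.06 and -1.56). Cells labelled KLF6-/- had 7.52 and 8.49 CPM, against 28.7 and 25.6 CPM in wild type (-1.76). The smallest difference was in IRF5-/- cells, with 10.6 and 11.6 CPM against 19.3 and 17.3 CPM in wild type (-0.72, SE 0.08, edgeR adjusted p 7.85e-12).

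Elane, neutrophil elastase, was scarcer, with 113 read pairs or fewer in any library. It fell to 0.122 and 0.136 CPM in cells labelled RUNX1-/- (4 and 5 read pairs), against 1.94 and 2.78 CPM in wild type (50 and 80 read pairs), a log2 difference of -4.15 (SE 0.41, edgeR adjusted p 4.35e-11). RELB-/- cells had 0.261 and 0.315 CPM, against 1.31 and 1.88 CPM in wild type (-2.47), and cells labelled CEBPB-/- had 0.573 and 0.479 CPM, against 2.66 and 2.91 CPM in wild type (-2.39). Elane was also lower in cells labelled KLF6-/- (-1.18; edgeR adjusted p 0.0574 without the second wild type library) and in JUNB-/- cells (-1.17). IRF5-/- cells were the exception: they had 1.10 and 1.53 CPM, against 1.31 and 1.88 CPM in wild type, the libraries overlapped, and the log2 difference of -0.28 (SE 0.25) did not pass (edgeR adjusted p 0.335).

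Prtn3, proteinase 3, did not follow its neighbour Elane in set 1. In JUNB-/- cells Prtn3 was 71.9 and 76.6 CPM, against 27.8 and 32.4 CPM in wild type, a log2 difference of 1.30 (SE 0.06, edgeR adjusted p 5.16e-26), while Elane was lower in the same libraries. In cells labelled CEBPB-/- it was 31.5 and 33.2 CPM, against 27.8 and 32.4 CPM in wild type, and the libraries overlapped (log2 difference 0.11, SE 0.07, edgeR adjusted p 0.168). With scaling by the total count this last value was -0.24 and passed (adjusted p 0.00159), a shift that goes with a median of all genes of -0.40. In the other lines Prtn3 was lower. Cells labelled RUNX1-/- had 10.8 and 10.9 CPM and cells labelled KLF6-/- 17.9 and 20.1 CPM, against 65.5 and 64.7 CPM in wild type (-2.58 and -1.78). RELB-/- cells had 13.9 and 12.6 CPM and IRF5-/- cells 22.9 and 23.9 CPM, against 44.1 and 43.7 CPM in wild type (-1.73 and -0.91). No DMSO group of these 4 lines overlapped its wild type (share over all genes not counted).

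Ctsg, cathepsin G, was lower in all 6 lines on small counts. Cells labelled RUNX1-/- had 10 and 25 read pairs (0.306 and 0.682 CPM), against 97 and 109 in wild type (3.76 and 3.79 CPM), a log2 difference of -2.90 (SE 0.27, edgeR adjusted p 1.62e-11). The log2 difference was -2.42 in RELB-/- cells, -1.91 in JUNB-/- cells, where only 10 and 5 read pairs were counted, -1.57 in cells labelled KLF6-/- and -1.12 in IRF5-/- cells. It was -1.02 (SE 0.36, edgeR adjusted p 0.00982) in cells labelled CEBPB-/-, with 16 and 13 read pairs against 47 and 35 in wild type, and there DESeq2 gave an adjusted p of 0.0736. Without the first wild type library the edgeR adjusted p was 0.1003, and without the second library of cells labelled CEBPB-/- it was 0.0905.

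Ctsc, the activating protease, behaved differently from its substrates. It was higher in cells labelled RUNX1-/-, at 1014 and 1017 CPM against 422 and 420 CPM in wild type, a log2 difference of 1.27 (SE 0.02, edgeR adjusted p 2.00e-33). It was also higher in cells labelled CEBPB-/-, at 931 and 953 CPM against 611 and 583 CPM in wild type (0.66). The size of this CEBPB-/- difference depended on the scaling. With scaling by the total count it was 0.31, and Ctsc averaged 467 TPM there and 445 TPM in wild type. In cells labelled RUNX1-/- and in those labelled CEBPB-/-, Mpo and Elane were lower. In the other 4 lines Ctsc was lower, by amounts that depended on the scaling. With TMM the log2 differences were -0.67 in IRF5-/- cells (179 and 180 CPM, against 285 and 284 CPM in wild type), -0.29 in RELB-/- cells, -0.25 in cells labelled KLF6-/- and -0.21 in JUNB-/- cells. With scaling by the total count they were -0.78, -0.31, -0.40 and -0.76 in the same order. In JUNB-/- cells Ctsc averaged 218 TPM, against 445 TPM in wild type. No DMSO group overlapped its wild type for Ctsc (share over all genes not counted).

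Ms4a3, the progenitor marker, fell in cells labelled RUNX1-/- by an amount not apart from that of Mpo beyond their SE. It had 2 and 6 read pairs there (0.0612 and 0.164 CPM), against 165 and 162 in wild type (6.40 and 5.64 CPM), a log2 difference of -5.65 (SE 0.31, edgeR adjusted p 9.44e-18). Cells labelled CEBPB-/- had 0.674 and 0.753 CPM, against 3.37 and 2.93 CPM in wild type (-2.14). The log2 differences were -1.21 in JUNB-/- cells, -1.14 in RELB-/- cells, -0.84 in cells labelled KLF6-/- and -0.77 in IRF5-/- cells. No group overlapped its wild type for Ms4a3 (share over all genes not counted).

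**Figure D3:**
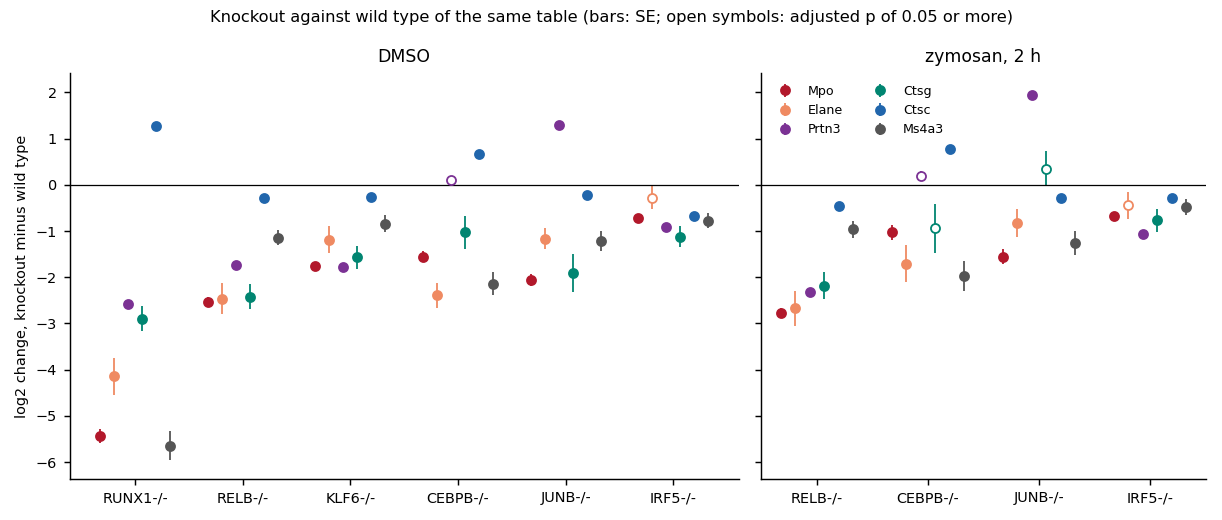
Log2 difference of each line from its wild type for the 6 azurophil genes, with DMSO and with zymosan, with bars of 1 SE. Nearly all values for Mpo, Elane, Ctsg and Ms4a3 lie below 0, whereas Prtn3 in JUNB-/- cells (1.30 with DMSO) and Ctsc in cells labelled RUNX1-/- (1.27) and CEBPB-/- (0.66) lie above it. With scaling by the total count, Prtn3 in cells labelled CEBPB-/- and Ctsg in zymosan-treated JUNB-/- cells, neither called with TMM, fall below 0, and the first is called there. Under that scaling Ctsc in DMSO-treated cells labelled CEBPB-/- is 0.31.

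Markers of other cells moved in the same libraries. Of 10 markers of eosinophils, basophils and mast cells, 8 or 9 were tested in a line and 7 or 8 of these were lower with DMSO in each, with medians between -2.77 and -5.05 on the log2 scale. Their summed level was 520 to 542 CPM in cells labelled CEBPB-/- and 223 to 227 CPM in JUNB-/- cells, against 1852 to 1867 CPM in wild type. It was 687 to 695 CPM in IRF5-/- cells and 444 to 452 CPM in RELB-/- cells, against 3881 to 3968 CPM in wild type. In the later table it was 793 to 812 CPM in cells labelled RUNX1-/- and 645 to 661 CPM in cells labelled KLF6-/-, against 5743 to 5887 CPM in wild type. Fcer1a and Mcpt4, mast cell markers, were at 0 in all 6 lines, and both were detected in wild type. Siglecf, an eosinophil receptor, went against the rest of the list and was higher in 5 of the 6 lines. Of the 9 monocyte and macrophage markers, 7 were lower in cells labelled CEBPB-/-, 8 in JUNB-/-, 9 in IRF5-/-, 7 in RELB-/-, 5 in cells labelled RUNX1-/- and 8 in cells labelled KLF6-/-. Their summed level ranged from 631 to 1823 CPM over the DMSO groups. This range spans separately scaled fits and does not set a line beside its own wild type. The part of these other cell types in the azurophil results was not tested.

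Neutrophil markers did not fall with the azurophil genes in most lines. Of the 7, 6 were higher in cells labelled CEBPB-/-, 7 in JUNB-/-, 6 in IRF5-/-, 5 in RELB-/- and 4 in cells labelled KLF6-/-, but all 7 were lower in cells labelled RUNX1-/-, where their summed level was 16009 to 16270 CPM against 65369 to 68661 CPM in wild type. The 10 specific granule genes, which are made at the later myelocyte stage, showed the same split. Of these, 10 were higher in IRF5-/- cells, 9 in JUNB-/-, 9 in RELB-/-, 9 in cells labelled KLF6-/- and 8 in cells labelled CEBPB-/-, while 8 were lower in cells labelled RUNX1-/-. There Ngp, neutrophilic granule protein, fell by 5.76 and Ltf, lactoferrin, fell by 4.24 on the log2 scale. In JUNB-/- cells Ltf was higher by 3.87 and Ngp by 3.22 on that scale, beside an Elane value of -1.17. Cell cycle genes were lower in each line, 8 of 8 in cells labelled CEBPB-/-, IRF5-/- and RELB-/- and 7 of 8 in the other 3, with medians from -0.77 in cells labelled KLF6-/- to -3.01 in cells labelled RUNX1-/-. The part of these cell cycle and specific granule differences in the azurophil results was not tested.

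The other azurophil and lysosomal contents did not fall as a group. Of 22 listed genes 21 were tested (Bpi, a bactericidal protein gene, did not pass the filter). In cells labelled RUNX1-/- 13 were higher and 6 lower, with a median of 0.38 beside -3.52 for the 6 members. There Arsb, a lysosomal sulfatase, fell by 2.05 and the lysozyme gene Lyz2 by 0.80 on the log2 scale. Cd63, a granule membrane protein, was higher there by 1.36. In RELB-/- cells 10 were higher and 8 lower (median 0.16), in cells labelled KLF6-/- 7 and 10 (-0.13), in IRF5-/- cells 10 and 10 (0.04), in cells labelled CEBPB-/- 10 and 9 (0.16) and in JUNB-/- cells 7 and 12 (-0.18). Ctsz, the lysosomal protease cathepsin Z, was lower in IRF5-/- (-1.50), JUNB-/- (-1.23) and RELB-/- cells (-1.20), and Asah1, acid ceramidase, was higher in cells labelled CEBPB-/- (0.97). In cells labelled KLF6-/- Psap, a precursor of lysosomal lipid-binding proteins, was lower (-1.15) and Ctsa, cathepsin A, higher (1.22). Prss57, neutrophil serine protease 4, was chosen after its values were seen: it was lower in cells labelled RUNX1-/- (-4.82) and higher in JUNB-/- cells (0.76), the directions of Prtn3 in both. Prss57 values in the other lines are not given here, so a likeness to Prtn3 across the lines cannot be judged.

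Genes that store, sort or inhibit the granule proteases were mixed, with medians between -0.19 and 0.26 in the 6 lines. The largest values were for Serpinb1a, an inhibitor of elastase, proteinase 3 and cathepsin G, which averaged 280 CPM in JUNB-/- cells and 28.7 CPM in wild type (log2 difference 3.29) but 2.26 CPM in cells labelled RUNX1-/- and 49.6 CPM in wild type (-4.45). Rab27a, a GTPase of granule release, was higher in JUNB-/- cells (1.37), cells labelled CEBPB-/- (1.05) and cells labelled KLF6-/- (1.00). Srgn, serglycin, the proteoglycan that holds the proteases in the granule, averaged 1936 CPM in cells labelled CEBPB-/- and 966 CPM in wild type (1.00). Among the 8 listed transcription factors of promyelocyte genes, Myb was lower in 5 of the 6 lines, by 3.93 in cells labelled RUNX1-/-, 2.21 in cells labelled CEBPB-/-, 2.13 in cells labelled KLF6-/-, 1.56 in IRF5-/- cells and 1.48 in RELB-/- cells on the log2 scale, and its value of -0.22 in JUNB-/- cells did not pass. Spi1, which encodes PU.1, was higher in cells labelled CEBPB-/- (0.96) and lower in cells labelled RUNX1-/- (-0.51). Cebpe, a factor of the myelocyte stage, was higher in JUNB-/- cells (2.19) and in cells labelled KLF6-/- (1.35).

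With zymosan the differences from wild type were similar in direction, and 20 of 24 values passed in the 4 lines that were treated. In RELB-/- cells all 6 members were lower (28.9% of all genes lower, 27.1% higher), in IRF5-/- cells 5 (30.8% lower, 29.6% higher), in cells labelled CEBPB-/- 3 with 1 higher (32.9% lower, 35% higher) and in JUNB-/- cells 4 with 1 higher (37.4% lower, 39.1% higher). Mpo was 5.05 and 3.39 CPM in RELB-/- cells, against 29.1 and 29.6 CPM in wild type (-2.77, SE 0.11, edgeR adjusted p 3.26e-35). Prtn3 was 13.02 and 12.1 CPM in RELB-/- cells, against 65.1 and 59.8 CPM in wild type (-2.31). In JUNB-/- cells Prtn3 was 70.0 and 71.4 CPM, against 21.6 and 15.8 CPM in wild type (1.94, SE 0.08, edgeR adjusted p 1.78e-30), whereas Mpo was lower by 1.56. Cells labelled CEBPB-/- had 2237 and 2304 CPM of Ctsc, against 1317 and 1348 CPM in wild type (0.77). With scaling by the total count this Ctsc value was 0.19 and still passed. In TPM the Ctsc libraries overlapped, at 606 to 629 in cells labelled CEBPB-/- and 586 to 609 in wild type. The values that did not pass were Elane in IRF5-/- cells (-0.45), Prtn3 and Ctsg in cells labelled CEBPB-/- (0.19 and -0.94) and Ctsg in JUNB-/- cells (0.35), and with scaling by the total count the Prtn3 value was -0.39 and passed, the Ctsg value of cells labelled CEBPB-/- was -1.52 and passed (edgeR adjusted p 0.00713) and the Ctsg value of JUNB-/- cells was -0.17. Ctsg in JUNB-/- cells and Prtn3 in cells labelled CEBPB-/- overlapped their wild type. Single libraries decided 3 of the 20 calls: Elane in JUNB-/- cells (-0.83) had an edgeR adjusted p of 0.137 without the second JUNB-/- library, Ctsg in IRF5-/- cells (-0.77) one of 0.169 without the second IRF5-/- library, and Ms4a3 in IRF5-/- cells (-0.48) one of 0.176 without the first and of 0.0923 without the second zymosan library of wild type. DESeq2 did not call that Ms4a3 value (-0.42, adjusted p 0.0983).

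Incubation with zymosan for 2 h raised Ctsc in every genotype. In set 2 it was 2032 and 2051 CPM with zymosan, against 285 and 284 CPM with DMSO, in wild type (log2 difference 2.84, SE 0.02, edgeR adjusted p 1.32e-86). IRF5-/- cells had 1673 and 1669 CPM with zymosan, against 179 and 180 CPM with DMSO (3.22), and RELB-/- cells 1473 and 1490 CPM, against 231 and 233 CPM (2.67). In set 1 wild type had 1317 and 1348 CPM with zymosan, against 611 and 583 CPM with DMSO (1.16). Cells labelled CEBPB-/- and JUNB-/- cells had log2 differences of 1.27 and 1.09. All zymosan libraries lay above all DMSO libraries of the same line, a separation whose share over all genes was not counted. Read pairs of Ctsc were more numerous as well, 41636 and 45209 with zymosan against 10899 and 12085 with DMSO in the set 2 wild type. In cells labelled CEBPB-/- they were 33528 and 29514 against 27649 and 27851. With scaling by the total count Ctsc was higher in each of the 6 genotypes, but by less. The log2 differences were then 1.97 in wild type, 2.28 in IRF5-/- and 1.78 in RELB-/- cells of set 2. In set 1 they were 0.46 in wild type, 0.34 in cells labelled CEBPB-/- and 0.41 in JUNB-/- cells.

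For the other 5 members the number and the direction of the calls depended on the scaling. Over the 6 genotypes and all 6 members 20 of 36 values passed with TMM, 16 higher and 4 lower, whereas 28 passed with scaling by the total count, 7 higher and 21 lower. The 7 higher were Ctsc in the 6 genotypes and Ctsg in JUNB-/- cells. Among values that did not pass with TMM, those called lower with total-count scaling included Ctsg (-1.09) and Ms4a3 (-0.78) in the set 1 wild type, Elane (-1.08), Ms4a3 (-0.80) and Prtn3 (-0.74) in JUNB-/- cells, Ctsg in cells labelled CEBPB-/- (-1.23) and Prtn3 in RELB-/- cells (-0.96). In the set 1 wild type 4 passed, Ctsc higher and 3 lower (35.7% of all genes higher, 39.9% lower): Prtn3 was 21.6 and 15.8 CPM with zymosan, against 27.8 and 32.4 CPM with DMSO (-0.70), Elane differed by -0.75 and Mpo by -0.47, and DESeq2 did not call the last 2 (adjusted p 0.0994 and 0.0555). In the set 2 wild type 4 were called higher (36.3% of all genes higher, 32.1% lower): besides Ctsc, Prtn3 by 0.51, Mpo by 0.68 and Ms4a3 by 0.50, and with scaling by the total count these 3 were -0.37, -0.19 and -0.37 in the order Prtn3, Mpo and Ms4a3, and all passed as lower. The Ms4a3 call was lost without the filter on low counts (0.35, edgeR adjusted p 0.0528), and in the 3 fits that left out the second DMSO library, the first zymosan library or the second zymosan library of this wild type (edgeR adjusted p 0.0554, 0.0553 and 0.126). Read pairs of Mpo were 597 and 653 with zymosan against 740 and 737 with DMSO there, and TMM scaling raised the zymosan libraries. The median of all genes in the zymosan comparison moved to -0.77 in the set 1 wild type, -1.02 in cells labelled CEBPB-/-, -0.69 in JUNB-/- cells, -0.82 in the set 2 wild type, -0.96 in IRF5-/- cells and -0.94 in RELB-/- cells with total-count scaling, from values within 0.1 of 0 with TMM. With TMM the summed level of the eosinophil, basophil and mast cell markers was 6137 to 6164 CPM with zymosan against 3881 to 3968 CPM with DMSO in the set 2 wild type, and 1498 to 1571 CPM against 1852 to 1867 CPM in that of set 1. Their part in these values was not tested.

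In the lines, IRF5-/- cells had 5 members called higher with zymosan (34.3% of all genes higher, 35.4% lower), namely Ctsc, Ms4a3 (0.80), Ctsg (0.78), Mpo (0.73) and Prtn3 (0.35), of which all but Ctsc were below 0 with total-count scaling (-0.14, -0.16, -0.21 and -0.59 in the same order). Without the first zymosan library of IRF5-/- cells, Ctsg (0.36) and Prtn3 (0.19) did not pass. RELB-/- cells had 3 called higher (35.2% higher, 37.5% lower), namely Ctsc, Ms4a3 (0.68) and Mpo (0.45), and the last 2 were -0.21 and -0.44 with total-count scaling. Both calls were lost without the first zymosan library of RELB-/- cells, where Mpo was 0.09. Cells labelled CEBPB-/- had Ctsc higher (35.1%) and Prtn3 lower (38.4%), at 20.8 and 21.5 CPM with zymosan against 31.5 and 33.2 CPM with DMSO (-0.62). JUNB-/- cells had Ctsc and Ctsg higher (36.5% higher, 36.7% lower). Ctsg had 22 and 18 read pairs with zymosan (1.17 and 0.811 CPM) there, against 10 and 5 with DMSO (0.336 and 0.185 CPM), a log2 difference of 1.87 (SE 0.47, edgeR adjusted p 0.000319), and it was above 0 with total-count scaling too (1.2). The 16 values that did not pass lay between -0.41 and 0.66.

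**Figure D4:**
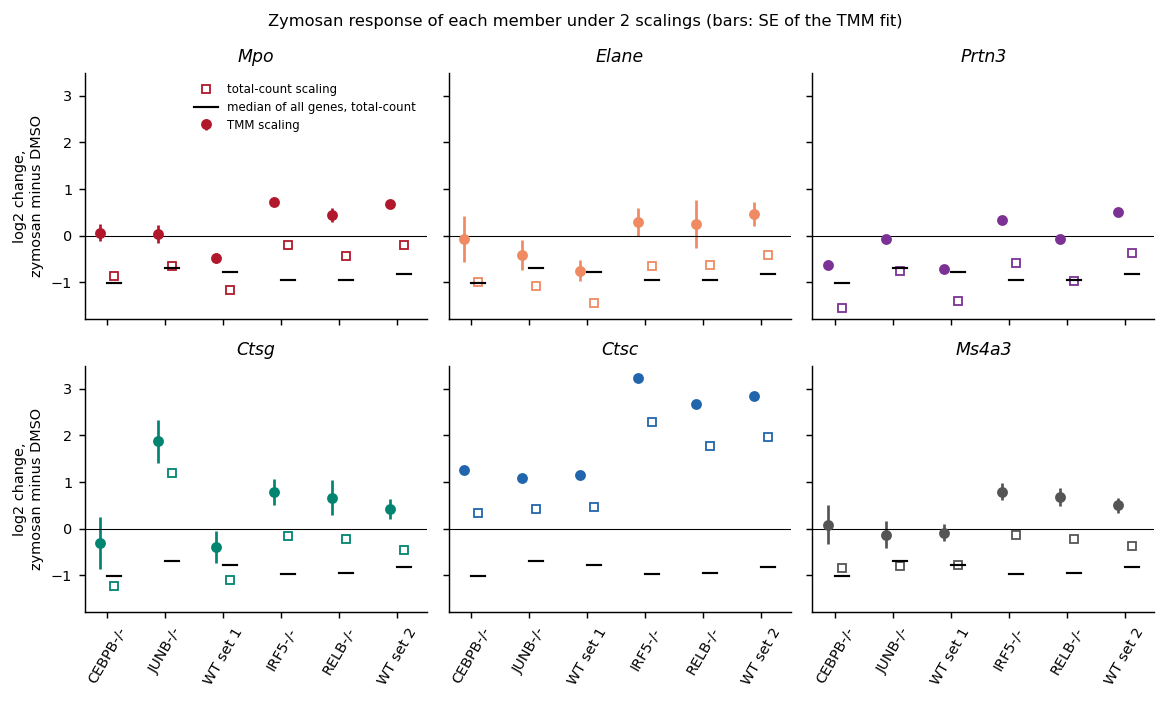
Log2 difference between zymosan and DMSO for each azurophil gene and genotype, with TMM scaling and with scaling by the total count. Ctsc lies above 0 under both, though only at 0.34 to 0.46 in set 1 with total-count scaling. The small positive values of Mpo, Prtn3, Ctsg and Ms4a3 in set 2 (0.35 to 0.80 where called) drop below 0 with total-count scaling.

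The zymosan response of a member differed between a line and its wild type in 6 of 24 interaction terms, where 41%, 43.6%, 33.3% and 31.4% of all genes differed for cells labelled CEBPB-/-, JUNB-/-, IRF5-/- and RELB-/- cells. The response of Prtn3 was -0.07 in JUNB-/- cells, which did not pass, and -0.70 in wild type, a difference of responses of 0.63 (SE 0.10, edgeR adjusted p 5.08e-07). In RELB-/- cells its response was lower than in wild type by 0.58 (SE 0.10, edgeR adjusted p 2.99e-06). For Ctsg the response was larger in JUNB-/- cells by 2.26 (SE 0.58, edgeR adjusted p 0.000957) on the small counts given above. Ctsc responded more in IRF5-/- cells than in wild type by 0.38 (SE 0.03) and less in RELB-/- cells by 0.17 (SE 0.03), and the RELB-/- term was lost when only the compared groups were fitted (-0.05), without the filter on low counts (-0.08) and without any 1 of 6 zymosan libraries of set 2. The Mpo term of cells labelled CEBPB-/- (0.53, SE 0.21, edgeR adjusted p 0.0404) was lost with DESeq2 (adjusted p 0.127), with total-count scaling and without the filter on low counts.

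Across the 24 libraries of sets 1 and 2, the levels of the 6 members were compared after centring each set on its own mean. Pearson's r of log2(CPM + 1) was 0.88 between Mpo and Elane, 0.84 between Mpo and Ctsg and 0.84 between Elane and Ms4a3, and 0.68 between Ctsg and Ms4a3. Prtn3 had an r of 0.61 with Ctsg, 0.47 with Elane, 0.36 with Mpo and 0.25 with Ms4a3, and Ctsc one of -0.0048 to 0.32 with the others. Libraries of a group share genotype and treatment, so these values describe 12 groups and carry no test. Among 4945 other genes the most alike to Mpo were Prg3 (0.93), Prg2 (0.91) and Ear2 (0.90), which encode eosinophil granule proteins. For Elane they were Steap4, Ear6 and Ear2 (0.83, 0.80 and 0.78), for Ctsg Pttg1, Prg3 and Prg2 (0.84, 0.82 and 0.81), for Ms4a3 Grk5, App and Ear6 (0.90, 0.89 and 0.87), for Prtn3 Timp2, S100a6 and Rala (0.91, 0.84 and 0.82) and for Ctsc Serpinb2, Ilkap and Txndc9 (0.96, 0.96 and 0.95).

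Open chromatin near the 6 genes was taken from the authors' deposited lists, which hold 47164 merged sites over the 8 ATAC-seq libraries and 10 lists of sites that differ between tissues, with the authors' adjusted p and no value per library. Within 50 kb of the starts lay 39 merged sites, 16 for Mpo, 14 for Elane, 12 for Prtn3 (11 of them shared with Elane), 5 for Ctsc, 2 for Ms4a3 and 1 for Ctsg. Of these, 7 were in a list of differences, against 20.0% of all merged sites, and 5 of the 6 members had a listed site in reach, against 49.4% of the 12330 genes tested in the tissues, of which 90.3% had a merged site in reach. Ctsg had none.

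The start of Ctsc lay in a merged site that was less accessible in air pouch neutrophils than in blood neutrophils. In the authors' deposited lists the site chr7:88277704-88278222, which covers the start and all of the promoter sequence printed for Ctsc, had lower accessibility in the exudate (−log10 of the adjusted p 6.496) and in the membrane (7.79), each against blood, in lists that hold 2.30% and 1.92% of all merged sites. A site 6128 bp upstream, chr7:88271392-88271957, which the authors' table names after Grm5, went the other way. Its accessibility was listed as higher in the exudate against blood (3.67) and against bone marrow (7.84), and higher in the membrane against bone marrow (2.63). A site 34577 bp upstream, chr7:88242974-88243508, was listed with higher accessibility in the membrane against bone marrow (3.09). These lists hold 6.01%, 9.93% and 8.60% of all merged sites in the order exudate against blood, exudate against bone marrow and membrane against bone marrow. No member had a site in the lists of blood against bone marrow, which hold 0.812% of all merged sites as less accessible and 1.19% as more accessible.

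At Ms4a3, whose RNA was not detected in any tissue library, the site over the start, chr19:11640607-11641162, which covers the printed Ms4a3 promoter, had lower accessibility in the exudate than in bone marrow in the authors' deposited list (−log10 of the adjusted p 1.53), which holds 4.72% of all merged sites. Inside Mpo, 8280 bp from its start, chr11:87801861-87802360 had higher accessibility in the exudate than in bone marrow (1.73) in the authors' deposited list. The authors' table names that site after Lpo, the neighbouring lactoperoxidase gene, and no merged site lay closer to the start of Mpo. This Mpo site was merged from 1 peak and the Ms4a3 site from 2, against 8 for the site over the start of Ctsc. The values 1.73 and 1.53 are near 1.30, the lowest in the authors' lists. For Elane and Prtn3 both listed sites were shared and lay nearer to other genes: chr10:79915102-79915678, named after Kiss1r, had lower accessibility against bone marrow in the exudate (4.23) and in the membrane (4.99), and chr10:79923570-79924077, named after Arid3a, had lower accessibility in the membrane against blood (1.63). These 2 sites are 28855 and 37323 bp from the start of Elane. Of all merged sites, 4.55% are listed as less accessible in the membrane against bone marrow and 1.92% as less accessible in the membrane against blood. No member had a site in the list of sites more accessible in the membrane against blood, which holds 4.72%. The start of Prtn3 in the count tables lay in a merged site that was in no list, but it is 5191 bp upstream of the RefSeq start, and the merged site nearest to the RefSeq start lay 1492 bp away.

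**Figure D5:**
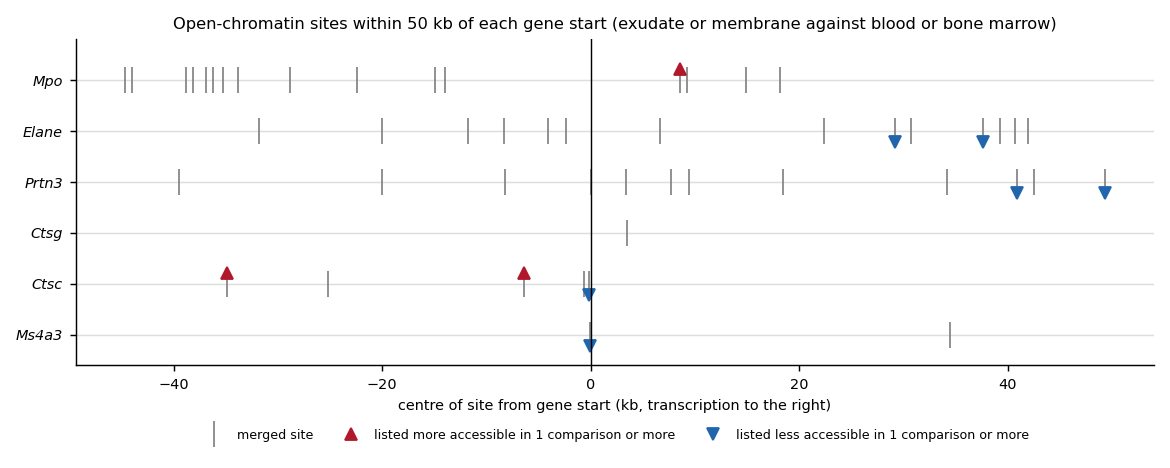
Distance in kb of the centre of each merged ATAC site from the start of its gene, in the direction of transcription, with sites of the authors' lists marked by direction. The site over the start of Ctsc is listed as less accessible and the one 6128 bp upstream as more accessible, and Ctsg has a merged site but no listed one.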

How the data were processed

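The authors deposited gene counts made with featureCounts, run without strand for the tissue table (v1.5.0-p2) and on the reverse strand for the ER-Hoxb8 tables (v1.6.3), per the file headers. Alignment with STAR to mm10 is per the submitters' processing notes. Their ATAC-seq lists give a −log10 adjusted p per site, the merged list a deposited score per site, which was not used as a measurement, and positions and gene names as other deposited columns. MACS2 and DESeq2 are named in the submitters' notes. Smart-seq2 amplifies few cells, so counts there are noisy and not molecules.

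Columns were matched to groups by name, and 18 columns of set 1 and 10 of the later table were not used. Counts were fitted per table with edgeR 4.0.16 (R 4.3.3): filterByExpr (minimum count 10, minimum total 15, proportion 0.7), TMM, 1 quasi-likelihood fit over all groups of the table, Benjamini-Hochberg over all genes tested, called at adjusted p under 0.05. The test was checked on simulated counts, where it found 79% of 2-fold changes for the comparison of cells labelled CEBPB-/- with wild type. TPM used the featureCounts length and was compared within a table. CPM is TMM-scaled unless named otherwise. Depth was 9.24 to 34.3 M counted read pairs a library. Alternatives were DESeq2 1.42.0, RLE and total-count scaling, no filter, only the compared groups, a 2-fold threshold, limma 3.58.1 (voom) for the tissues, a replicate block and leaving out each library.

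The members and gene lists were chosen with earlier results of these data known. Named genes are the 6 members, the targeted genes, at most 4 called genes per list and comparison (lowest adjusted p first) and, per member, the 3 genes most alike in level among those with a mean log2 CPM of at least 4 in both sets; marker genes and exceptions are named where they occur. Sites were assigned within 50 kb of a start. Promoters are the 250 bases before RefSeq starts.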

Additional observations from a re-analysis of the deposited data

Results flagged for a closer look

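Of 7 sets of tissue libraries examined, each a member in a group of at least 4 libraries, 3 held a library far from the others. Chance picks out about 1 in 20 groups in general, but where all others are at 0 any single count is picked out. These were Mpo in exudate library 4 (0.802 CPM, 9 counts, the other 4 at 0), Prtn3 in blood library 1 (5.26 CPM, 60 counts) and Prtn3 in exudate library 5 (0.0765 CPM, 1 count, the other 4 at 0). That 1 count is within the 3 counts that a count of 0 allows.

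In 6 combinations of member and line the zymosan response of a line differed from that of its wild type by the interaction term of edgeR's quasi-likelihood fit, on the log2 scale. They were Ctsg (2.26) and Prtn3 (0.63) in JUNB-/- cells, Mpo in cells labelled CEBPB-/- (0.53), Ctsc in IRF5-/- cells (0.38), and Prtn3 (-0.58) and Ctsc (-0.17) in RELB-/- cells. The Mpo term was lost in 9 of 12 fits that left out a library, and the Ctsc term of RELB-/- cells in 6 of 12. No cause was tested for any of these results.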

How the results depend on the processing

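Depth limits Elane, Ctsg and Ms4a3, which rest on few read pairs in many ER-Hoxb8 libraries, and the spread between tissue libraries limits the tissues. Of 36 differences from wild type with DMSO, 33 to 35 passed when 1 library was left out, of 24 with zymosan 19 to 20, of 36 zymosan responses 18 to 21, of 24 interaction terms 5 to 6 and of 12 tissue values 0 to 0. DESeq2 called 2 tissue values, for which its share over all genes is not given here. Requiring a 2-fold change left 11 differences with zymosan, 7 zymosan responses and 1 interaction term. These counts rest on TMM: with total-count scaling the Ctsc responses of set 1 were below 2-fold (log2 differences of 0.34 to 0.46). With DMSO it dropped the calls of Ctsc in every line but cells labelled RUNX1-/-. It also dropped those of Ms4a3 in cells labelled KLF6-/- and of Mpo, Prtn3 and Ms4a3 in IRF5-/- cells. Within 10 kb of the starts lay 13 merged and 4 listed sites, within 100 kb 62 merged sites, and at an adjusted p of 0.01 there were 4 listed sites.

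With a replicate block the counts of called values were 34, 20, 20 and 6 in the ER-Hoxb8 families and 0 in the tissues, the same as without it. Replicate numbers paired no ER-Hoxb8 samples: 0 of 33 pairs of groups had deviations correlated above 0.1. Tissue columns share a tag and a number across tissues, whose meaning is not given, and 1 of 11 same-named pairs of libraries had deviations correlated above 0.1, against 3 of 70 pairs with different names.

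Total-count scaling gave the opposite sign for Prtn3 in cells labelled CEBPB-/- (-0.24 with DMSO, -0.39 with zymosan), Ctsg in zymosan-treated JUNB-/- cells (-0.17) and many zymosan responses: Mpo (-0.87) and Ms4a3 (-0.84) in cells labelled CEBPB-/-, Mpo in JUNB-/- cells (-0.64), Prtn3, Elane, Ctsg, Mpo and Ms4a3 in the set 2 wild type (-0.37, -0.41, -0.45, -0.19 and -0.37) and in IRF5-/- cells (-0.59, -0.64, -0.16, -0.21 and -0.14), and Elane, Ctsg, Mpo and Ms4a3 in RELB-/- cells (-0.63, -0.22, -0.44 and -0.21). The other zymosan responses that changed sign were near 0: Ms4a3 in the set 1 wild type (0.0462 with RLE scaling and 0.0528 with DESeq2), Elane in cells labelled CEBPB-/- (0.0454 and 0.0542 in the same order, and 0.00755 with only the compared groups) and Mpo there (-0.00965 without the filter). Voom gave -1.57 for Prtn3 between membrane and bone marrow. Apart from the scaling itself, the cause was not tested.

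Leaving out 1 library turned the sign of Prtn3 between membrane and blood (-7.18 to 5.54), membrane and bone marrow (-9.52 to 2.14) and exudate and membrane (-10.7 to 1.54), of Ctsc between exudate and membrane (-1.99 to 6.19), of Prtn3 in zymosan-treated cells labelled CEBPB-/- (-0.0403 to 0.41) and of Elane in IRF5-/- cells with DMSO (-0.54 to 0.0126). It also turned zymosan responses of Ms4a3 in the set 1 wild type (-0.16 to 0.0473), of Elane (-0.66 to 0.41), Ctsg (-0.88 to 0.14), Mpo (-0.0860 to 0.17) and Ms4a3 (-0.26 to 0.38) in cells labelled CEBPB-/-, of Mpo (-0.11 to 0.0422) and Ms4a3 (-0.59 to 0.17) in JUNB-/- cells and of Elane in RELB-/- cells (-0.28 to 0.56). None of these had passed by edgeR with all libraries.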
